A study of Mus musculus with 16 samples.

Results

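The genes described here encode the coat proteins of lipid droplets and the enzymes and cofactors that release fatty acids from them. They were taken by name from the deposited count table of mouse left ventricle, by matching Ensembl gene IDs to symbols: 10 genes of 53764 in the table, and all 10 passed the filter on low counts, which left 15841 genes for testing. The members are the perilipins Plin2, Plin3, Plin4 and Plin5, the lipases Pnpla2, Lipe and Mgll, and the regulators of Pnpla2, namely Abhd5, G0s2 and Hilpda. Messenger RNA was sequenced from male C57BL/6J mice that were put on a diet at 8 weeks of age and kept on it for 4 months. The HFHS ertugliflozin group ate a diet high in fat and sugar (HFHS) with 0.5 mg ertugliflozin per g of food. Ertugliflozin blocks SGLT2, the transporter by which the kidney takes glucose back from urine. The HFHS untreated group ate that diet alone, the CD ertugliflozin group ate a low-fat control diet (CD) with the same dose of drug, and the CD untreated group ate the control diet alone. Each group had 4 libraries, which the submitters chose as representative from a larger set of animals. The labels give no ages beyond the start of the diet, and no genetic change.

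Cardiomyocytes hold fatty acid that they do not burn at once as triglyceride in lipid droplets. Perilipins cover the droplet surface and control which lipases reach it. Pnpla2 (adipose triglyceride lipase, ATGL) removes the first fatty acid, Lipe (hormone-sensitive lipase) then acts on diacylglycerol and Mgll on monoacylglycerol. Abhd5 activates Pnpla2, while G0s2 and Hilpda inhibit it. Several of these genes are known targets of PPAR transcription factors, which fatty acids activate.

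The genes lie on 6 chromosomes in GRCm38, and every one is protein-coding. Plin4 (ENSMUSG00000002831, chr17:56100591-56109803), Plin5 (ENSMUSG00000011305, chr17:56111601-56117596) and Plin3 (ENSMUSG00000024197, chr17:56277476-56292873) lie on the minus strand of chromosome 17. Plin4 and Plin5 are 1797 bases apart. Plin2 (ENSMUSG00000028494) is at chr4:86648386-86670060 and G0s2 (ENSMUSG00000009633) at chr1:193272161-193273217, both on the minus strand. Pnpla2 (ENSMUSG00000025509) is at chr7:141455198-141460743 on the plus strand and Lipe (ENSMUSG00000003123) at chr7:25379527-25398710 on the minus strand. On the plus strand, Hilpda (ENSMUSG00000043421) is at chr6:29272488-29275446, Mgll (ENSMUSG00000033174) at chr6:88724412-88828360 and Abhd5 (ENSMUSG00000032540) at chr9:122351608-122381524.

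Promoter sequence is shown for 5 genes because they cover the responses described below: Plin2, Plin5 and Mgll rose on HFHS, Plin3 fell and Abhd5 did not pass. The sequences are from RefSeq (GRCm38.p6), 5′ to 3′ on the strand of the gene, and end before the annotated exon. Capitals mark AGGTCA, the core site of nuclear receptors such as PPAR, or CACGTG (the E-box), each searched on both strands. The windows are chr4:86670061-86670309 for Plin2, chr17:56117597-56117798 for Plin5, chr17:56290512-56290761 for Plin3, chr6:88724162-88724411 for Mgll and chr9:122351366-122351607 for Abhd5. The window of Plin3 lies inside the span of the gene given above, before a RefSeq start that is internal to it.
Plin2: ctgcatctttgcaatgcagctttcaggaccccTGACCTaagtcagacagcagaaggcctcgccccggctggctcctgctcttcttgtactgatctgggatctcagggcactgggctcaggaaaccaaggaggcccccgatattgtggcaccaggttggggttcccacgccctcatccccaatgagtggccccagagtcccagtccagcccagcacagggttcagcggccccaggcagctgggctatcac
Plin5: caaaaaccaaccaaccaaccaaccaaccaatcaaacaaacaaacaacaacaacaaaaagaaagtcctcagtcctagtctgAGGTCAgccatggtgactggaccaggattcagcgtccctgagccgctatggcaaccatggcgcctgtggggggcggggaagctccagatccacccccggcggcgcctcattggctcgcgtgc
Plin3: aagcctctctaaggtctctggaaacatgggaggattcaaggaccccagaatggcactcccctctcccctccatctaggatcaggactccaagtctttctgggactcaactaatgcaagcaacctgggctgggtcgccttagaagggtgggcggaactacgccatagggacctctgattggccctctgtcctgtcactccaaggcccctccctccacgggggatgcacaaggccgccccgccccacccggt
Mgll: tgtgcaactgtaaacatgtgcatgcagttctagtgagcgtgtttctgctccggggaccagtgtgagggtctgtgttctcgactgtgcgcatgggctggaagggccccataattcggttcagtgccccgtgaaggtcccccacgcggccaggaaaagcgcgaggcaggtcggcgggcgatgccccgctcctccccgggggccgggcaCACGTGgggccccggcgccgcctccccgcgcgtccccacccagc
Abhd5: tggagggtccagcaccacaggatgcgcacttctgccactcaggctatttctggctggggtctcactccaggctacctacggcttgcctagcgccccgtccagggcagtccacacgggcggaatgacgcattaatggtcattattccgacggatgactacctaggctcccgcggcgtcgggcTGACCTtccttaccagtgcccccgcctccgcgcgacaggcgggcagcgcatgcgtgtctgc

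In the 250 bases before each RefSeq start, AGGTCA was present in 3 of the 14 promoters of the 10 genes, and in 14% of all 32851 promoters of the same length. The matches began at −218 from the start of Plin2, −170 from that of Plin5 and −69 from that of Abhd5, so the letters were present both in genes that rose and in a gene that did not pass. ACGTG, the core of the hypoxia response element, was present in 4 of the 14 promoters, against 16.6% of all. These were a promoter of Lipe, both promoters of Mgll and the downstream promoter of Hilpda, a gene known to be induced by hypoxia. In Lipe and in the upstream promoter of Mgll it lay within CACGTG, which 6.02% of all promoters held. The windows of Lipe and of the downstream Mgll promoter lie inside the gene spans given above. The match of Hilpda also lies past the start of its span. TATAAA, the TATA box, was in none of the 14, against 12.4% of all. These matches are descriptions of letters and were not tied to binding of any factor.

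Library totals were 14637669 to 21452212 counts. Levels are given in CPM, the usual counts-per-million scale, with each library total adjusted by its TMM factor. Myl2, the regulatory myosin light chain of ventricular muscle, was at 5929 to 8308 CPM, and the listed atrial markers summed to at most 317 CPM in all libraries but CD untreated replicates 1, 2 and 3 (1228, 457 and 336 CPM). Fat of the heart surface could hold several of these transcripts, so adipocyte markers were examined: 7 of 12 passed the filter, and Adipoq, Lep, Retn, Adrb3 and Ucp1 did not. Adipoq had 0 to 27 counts per library, Plin1 0 to 57 and Cidec 0 to 37. The 12 markers summed to 113 to 118 CPM in HFHS ertugliflozin, 101 to 110.2 in HFHS untreated, 96.9 to 113 in CD ertugliflozin and 98.2 to 119 CPM in CD untreated. Most of that sum came from Cidea, Slc36a2, Thrsp and Pparg, of which Pparg was the lowest with 213 to 342 counts. The adipocyte score is the mean log2 CPM of the 7 tested markers, each centred on its mean over all libraries. It averaged 0.64 in CD untreated, −0.12 in CD ertugliflozin, −0.30 in HFHS untreated and −0.22 in HFHS ertugliflozin, with overlapping ranges. CD untreated replicates 1 and 2 were at 1.16 and 1.17. For diet without drug, Plin1 stood at −2.31 ± 1.07 and Cidec at −3.26 ± 1.24 (log2, SE). Neither passed (edgeR adjusted p = 0.306 and 0.2005).

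The genes spanned a wide range of levels, which can be compared between genes only per exon length. Pnpla2 was the highest at 133 ± 13.8 CPM per kb of exon (SD, n = 16 libraries), followed by Plin5 at 93.3 ± 16.0, and their ranges overlapped (109 to 154 and 75.0 to 119). Plin3 (57.5 ± 8.09), Mgll (52.3 ± 9.22), G0s2 (51.5 ± 13.4) and Plin4 (42.5 ± 6.69 CPM per kb) formed a middle tier in which neighbours did not differ beyond their spread. Plin2, the perilipin found in most tissues, was lower at 27.3 ± 3.90 CPM per kb, and its highest library (34.0) overlapped with the lowest of Plin4 (32.7). Abhd5 (12.5 ± 0.757) and Lipe (11.7 ± 2.30 CPM per kb) did not differ beyond their spread. Hilpda was the lowest at 3.84 ± 0.438 CPM per kb, with 59 to 98 counts per library, so counting error is a larger part of its spread than for the others, which had at least 580 counts per library. Within a gene, the highest library exceeded the lowest by 1.25-fold for Abhd5, the steadiest, and by 2.62-fold for G0s2, the most variable.

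**Figure D1:**
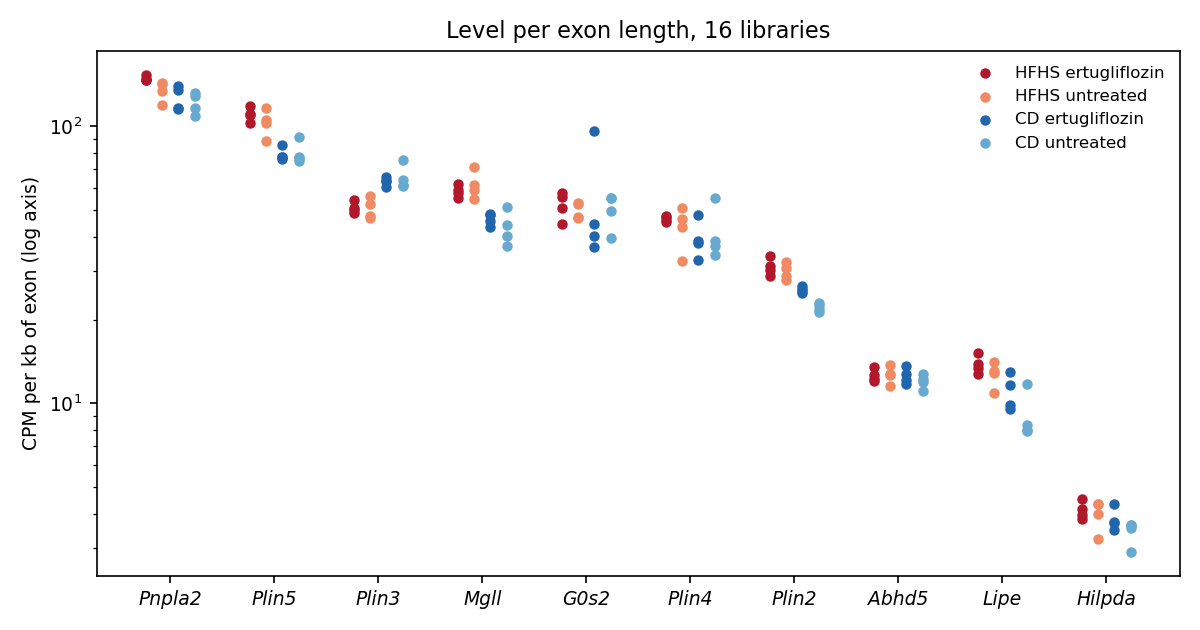
Level of each gene in CPM per kb of exon (log axis) in 16 libraries, coloured by group, with genes ordered by their mean. Pnpla2 averaged 133 and Hilpda 3.84 CPM per kb. The single high G0s2 point is CD ertugliflozin replicate 4.

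The diet was compared first, as the mean of both HFHS groups over the mean of both CD groups. HFHS hearts had more mRNA for 2 of the 4 perilipins and for all 3 lipases, and less for Plin3. Of the 10 genes 5 rose and 1 fell (edgeR quasi-likelihood test, Benjamini-Hochberg adjustment over all 15841 genes), against 6.59% of all genes that rose, 5.01% that fell and 11.6% changed in either direction. The median log2 fold change was 0.18 over the 10 genes and −0.0076 over all genes. In bulk tissue, fewer cells of a type and less RNA per cell cannot be told apart. The sizes were modest: between 1.14-fold and 1.34-fold for the rises.

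Among the coat genes, Plin2 showed the tightest response. It had 110.3, 101, 119 and 107 CPM in HFHS ertugliflozin hearts and 97.8, 114, 108 and 102 CPM in HFHS untreated hearts, against 90.8, 93.1, 87.9 and 89.6 CPM in CD ertugliflozin hearts and 75.3, 80.6, 79.8 and 77.0 CPM in CD untreated hearts. Every HFHS library was above every CD library. That held for 3 of the 10 genes (Plin2, Plin3 and Mgll, counting either direction), against 1.76% of all genes. The averaged log2 fold change of Plin2 was 0.35 ± 0.04 (SE, edgeR adjusted p = 1.63e-05). Plin5, the perilipin of oxidative tissues that tethers droplets to mitochondria, had 229, 247, 215 and 232 CPM in HFHS ertugliflozin and 184, 219.8, 214 and 243 CPM in HFHS untreated hearts. In CD ertugliflozin hearts it had 178, 162, 159 and 162 CPM, and in CD untreated hearts 160.3, 162, 156 and 191 CPM. The groups overlapped through 1 library on each side, HFHS untreated replicate 1 and CD untreated replicate 4. Plin5 rose by 0.42 ± 0.05 on the log2 scale (edgeR adjusted p = 7.46e-05).

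Plin3, a coat protein that is soluble in the cytosol and moves onto forming droplets, went the other way. It had 184, 189, 191 and 205 CPM in HFHS ertugliflozin and 177, 212, 198 and 179.7 CPM in HFHS untreated hearts, against 228, 249, 239 and 240.1 CPM in CD ertugliflozin and 243, 233, 229.8 and 286 CPM in CD untreated hearts. Every HFHS library was below every CD library. The log2 fold change was −0.34 ± 0.05 (SE, edgeR adjusted p = 0.000203). The nearest annotated genes, Ticam1 and Arrdc5, share 0 exonic bases with Plin3. Plin4, which coats small droplets in adipocytes and muscle, averaged 268 ± 6.28 CPM in HFHS ertugliflozin and 249.5 ± 44.0 CPM in HFHS untreated hearts, against 227 ± 35.7 CPM in CD ertugliflozin and 238 ± 55.0 CPM in CD untreated hearts (SD, n = 4 per group). Its libraries overlapped widely and it did not pass (0.15 ± 0.11, edgeR adjusted p = 0.419). The 95% interval of the log2 fold change of Plin4 was −0.09 to 0.39, so a rise as large as that of Plin2 was not separated from none.

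**Figure D2:**
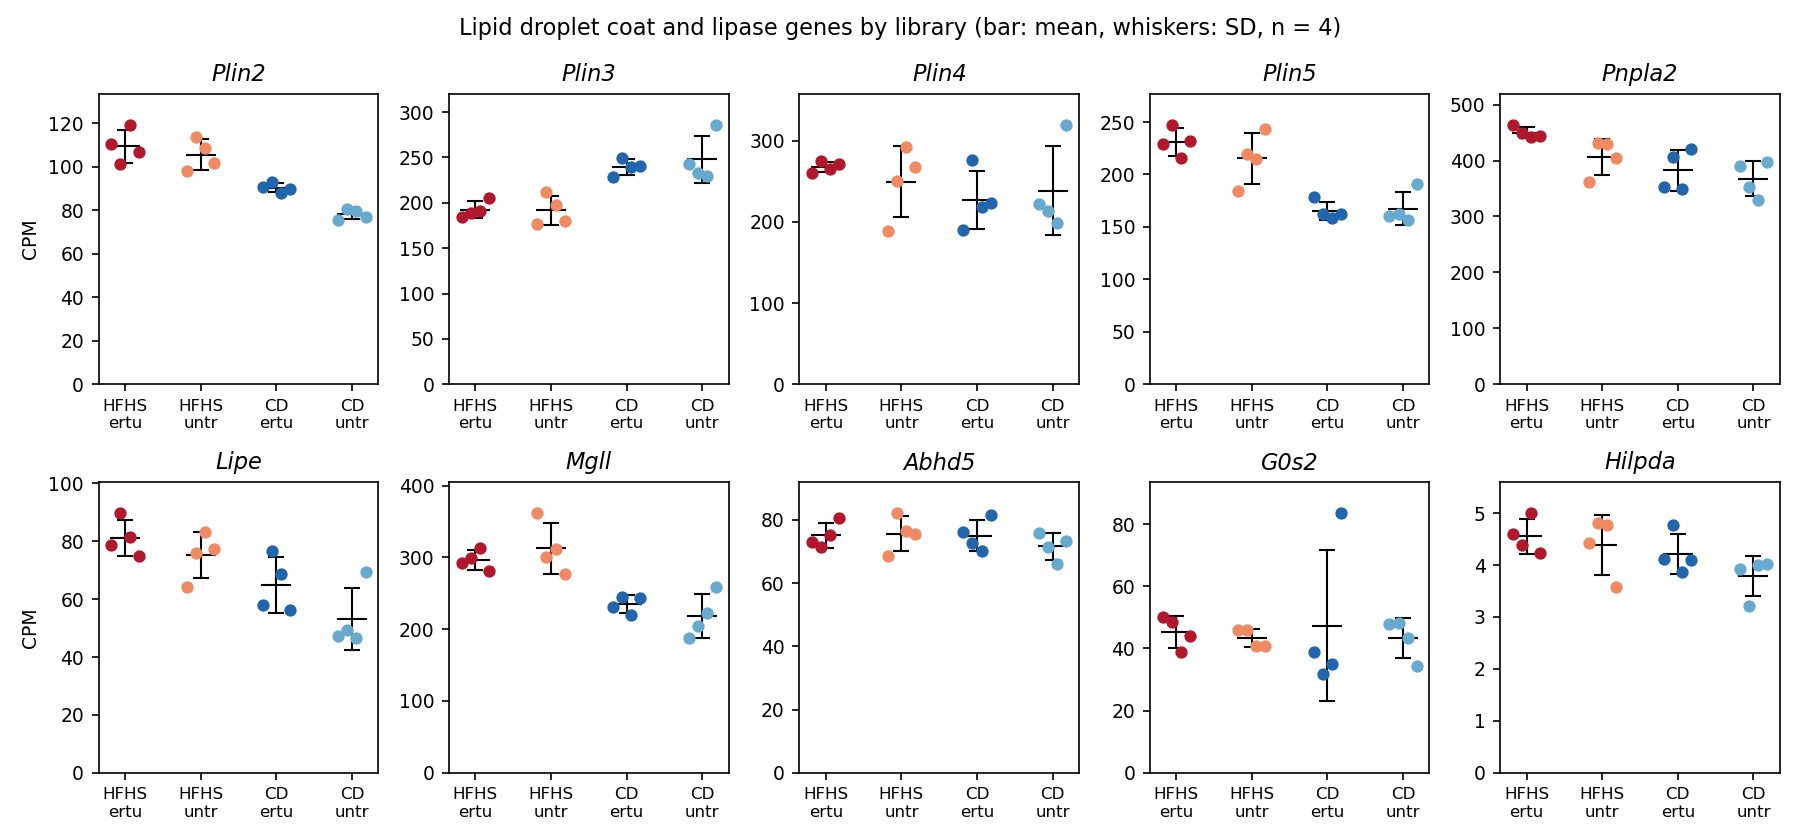
CPM of each gene (y axis from 0) in the 4 groups, from left to right HFHS ertugliflozin, HFHS untreated, CD ertugliflozin and CD untreated. Points are libraries in order of replicate number, bars are means and whiskers SD (n = 4). Plin2 and Mgll are higher and Plin3 is lower in every HFHS library than in every CD library, while G0s2 in CD ertugliflozin has 1 library at 83.5 CPM.

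All 3 lipases rose with the diet. Mgll, which also breaks down an endocannabinoid, had 292, 299, 313 and 281 CPM in HFHS ertugliflozin and 362, 300.1, 311 and 278 CPM in HFHS untreated hearts. It had 230.5, 246, 219.6 and 244 CPM in CD ertugliflozin and 188, 205, 223 and 259 CPM in CD untreated hearts. Every HFHS library was above every CD library, and the log2 fold change was 0.43 ± 0.06 (SE, edgeR adjusted p = 0.000255). Lipe had 78.7, 89.7, 81.4 and 75.0 CPM in HFHS ertugliflozin and 64.3, 76.1, 83.2 and 77.4 CPM in HFHS untreated hearts, against 58.1, 76.7, 68.7 and 56.3 CPM in CD ertugliflozin and 47.2, 49.2, 46.7 and 69.3 CPM in CD untreated hearts. Its groups overlapped, and it rose by 0.41 ± 0.09 on the log2 scale (edgeR adjusted p = 0.00891). Exons of Lipe share 918 bases with the antisense gene 4732471J01Rik, which had 8 to 19 counts per library against at least 744 for Lipe. The strand setting of the counting is not given in the sources used here, so reads of such pairs may not be separated. Exons of Abhd5 share 950 bases with A730085K08Rik (0 to 3 counts per library), those of Mgll 167 with Gm26588 (3 to 16) and those of Plin4 17 with Hdgfl2 (606 to 945), all on the opposite strand.

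Pnpla2 had the smallest of the rises. It had 464, 449, 442 and 444 CPM in HFHS ertugliflozin and 362, 432, 429 and 404 CPM in HFHS untreated hearts, against 353, 407, 349.5 and 421 CPM in CD ertugliflozin and 389.6, 353, 330.2 and 398 CPM in CD untreated hearts. The lowest HFHS library was HFHS untreated replicate 1, which lay within the CD range. The log2 fold change was 0.19 ± 0.05 (SE, edgeR adjusted p = 0.0201), and the call of Pnpla2 ended when CD untreated replicates 2 and 3 were both left out (0.14, edgeR adjusted p = 0.113). It also ended with the adipocyte marker score as a covariate (0.19, edgeR adjusted p = 0.0558). The calls of Plin2, Plin3, Plin5, Lipe and Mgll held under every alternative run for this comparison, and all 6 held with any single library left out.

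**Figure D3:**
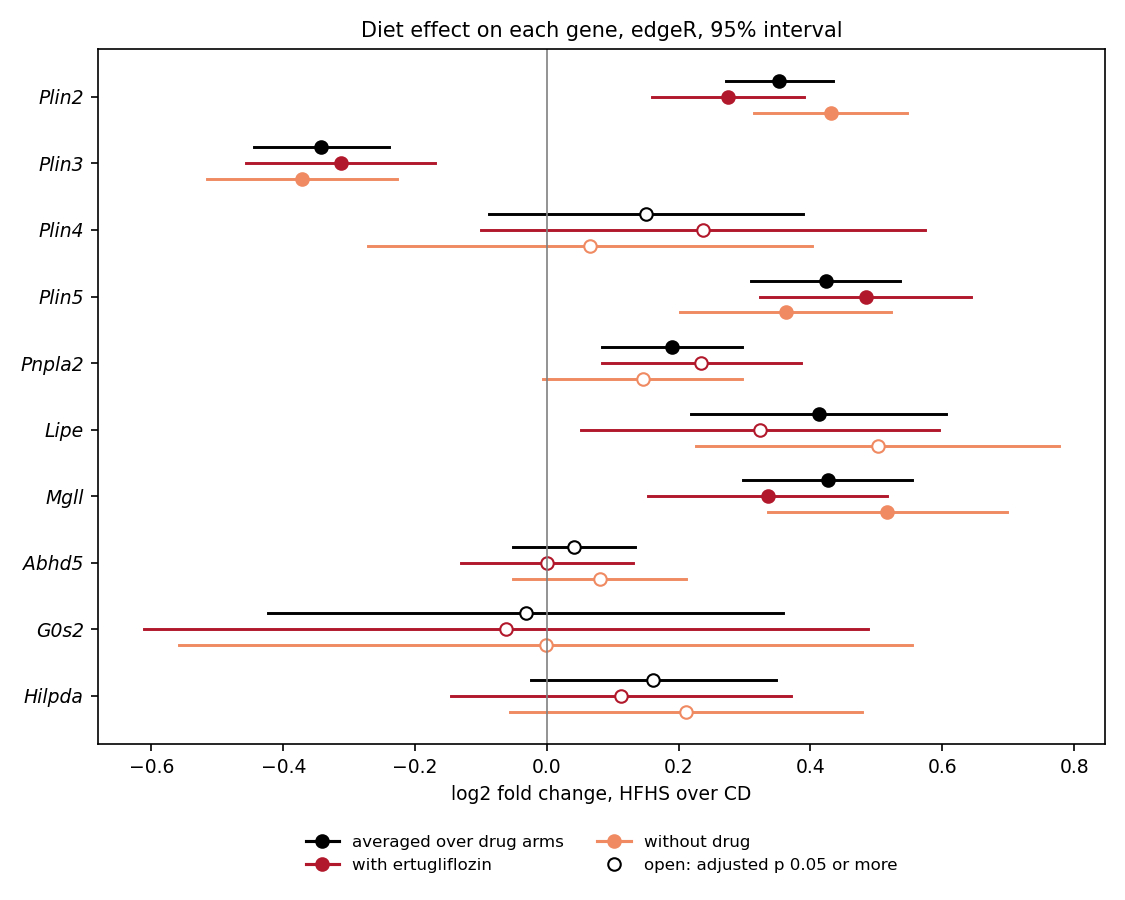
Diet effect as log2 fold change of HFHS over CD for each gene, averaged over drug arms (black), with ertugliflozin (red) and without drug (orange). Lines are 95% intervals and filled points have an edgeR adjusted p under 0.05. Plin3 alone among the genes that passed lies left of 0, and the intervals of G0s2 are the widest.

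The 3 regulators of Pnpla2 did not pass. Abhd5, its activator, averaged 75.1 ± 4.01 CPM in HFHS ertugliflozin and 75.7 ± 5.49 CPM in HFHS untreated hearts, against 75.0 ± 4.91 CPM in CD ertugliflozin and 71.6 ± 4.22 CPM in CD untreated hearts (SD, n = 4 per group). Its log2 fold change was 0.04 ± 0.04 with a 95% interval of −0.05 to 0.13 (edgeR adjusted p = 0.602). G0s2, the inhibitor, had 50.3, 48.4, 38.8 and 44.0 CPM in HFHS ertugliflozin and 45.8, 46.0, 40.7 and 40.9 CPM in HFHS untreated hearts, against 38.8, 31.9, 35.1 and 83.5 CPM in CD ertugliflozin and 47.9, 48.2, 43.3 and 34.4 CPM in CD untreated hearts. CD ertugliflozin replicate 4 was the highest library of all 16. The log2 fold change of G0s2 was −0.03 ± 0.18 (95% interval −0.42 to 0.36, edgeR adjusted p = 0.940), and 0.18 without CD ertugliflozin replicate 4 (edgeR adjusted p = 0.137). Hilpda, the hypoxia-inducible inhibitor, averaged 4.55 ± 0.335 CPM in HFHS ertugliflozin and 4.39 ± 0.573 CPM in HFHS untreated hearts, against 4.21 ± 0.391 CPM in CD ertugliflozin and 3.79 ± 0.387 CPM in CD untreated hearts (SD, n = 4 per group). It stood at 0.16 ± 0.09 (95% interval −0.02 to 0.35, edgeR adjusted p = 0.258).

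The balance between Pnpla2 and its regulators was then compared within each library, where scaling of the library cancels. The log2 ratio of Abhd5 to Pnpla2 in CPM averaged −2.50 ± 0.11 in HFHS and −2.35 ± 0.08 in CD hearts (SD, n = 8 each). The difference was −0.15 (two-sided exact permutation test of diet within drug arm, p = 0.00490, adjusted p = 0.0490 over 10 tests of 5 ratios). It lay between −0.18 and −0.13 with any single library left out, but it no longer passed without any 1 of CD untreated replicates 1, 2 or 3, CD ertugliflozin replicates 1, 3 or 4, HFHS untreated replicates 3 or 4 and HFHS ertugliflozin replicates 1, 2 or 3 (highest exact permutation adjusted p = 0.11). By group, the log2 ratio of Abhd5 to Pnpla2 averaged −2.58 ± 0.10 in HFHS ertugliflozin and −2.35 ± 0.11 in CD ertugliflozin hearts. Without drug the gap was smaller, at −2.42 ± 0.04 in HFHS and −2.36 ± 0.06 in CD hearts (SD, n = 4 each). In both arms the ranges of the diets overlapped, and the arms were not tested apart. G0s2 to Pnpla2 averaged −3.27 ± 0.16 in HFHS and −3.10 ± 0.42 in CD hearts (exact permutation adjusted p = 0.642). Hilpda to Pnpla2 averaged −6.55 ± 0.15 in HFHS and −6.51 ± 0.15 in CD hearts (exact permutation adjusted p = 0.799). Between coats, the log2 ratio of Plin5 to Plin2 was 1.05 ± 0.16 in HFHS and 0.98 ± 0.16 in CD hearts, and that of Plin4 to Plin2 was 1.26 ± 0.17 in HFHS and 1.45 ± 0.29 in CD hearts (exact permutation adjusted p = 0.642 and 0.476). For the drug the 5 ratios differed by −0.10 to −0.0001, and the smallest exact permutation adjusted p was 0.476.

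Within each drug arm the diet effect on Plin2, Plin3, Plin5, Pnpla2, Lipe and Mgll had the same sign as the average. The arms use separate libraries. Among treated animals Plin2, Plin5 and Mgll rose and Plin3 fell, 4 of the 10 genes, against 3.69% of all genes (2.15% that rose and 1.53% that fell). Plin2 was at 0.27 ± 0.05 (SE, edgeR adjusted p = 0.00825), Plin5 at 0.48 ± 0.08 (edgeR adjusted p = 0.00127), Mgll at 0.34 ± 0.09 (edgeR adjusted p = 0.0376) and Plin3 at −0.31 ± 0.07 on the log2 scale (edgeR adjusted p = 0.0152). Pnpla2, at 0.23 ± 0.07, missed the threshold (edgeR adjusted p = 0.0761), although all 4 HFHS ertugliflozin libraries were above all 4 CD ertugliflozin libraries, as was so in one direction or the other for 5 of the 10 genes, against 13.2% of all genes in either direction and 6.79% that were higher. Lipe stood at 0.32 ± 0.13 (edgeR adjusted p = 0.183). The call of Mgll ended without any 1 of the 8 libraries of this comparison (highest edgeR adjusted p = 0.103) and with the replicate block (0.34, edgeR adjusted p = 0.0705). This call also ended with upper-quartile factors (edgeR adjusted p = 0.0524) and with no filter (edgeR adjusted p = 0.0552). It ended as well without CD untreated replicates 2 and 3 (edgeR adjusted p = 0.0543). That of Plin3 ended without HFHS ertugliflozin replicate 1 or 2, at −0.29 and −0.30. Pnpla2 passed without CD ertugliflozin replicate 4 or HFHS untreated replicate 1, at 0.28 and 0.23. It also passed by DESeq2 (0.24, DESeq2 adjusted p = 0.0410) and by limma-voom (0.25, limma-voom adjusted p = 0.0260). The same held when only the groups compared were fitted (0.23, edgeR adjusted p = 0.0470).

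Without drug the same 4 genes passed, against 2.06% of all genes (1.45% that rose and 0.619% that fell). Their groups did not overlap for 3 of the 10 genes, against 8.33% of all genes in either direction and 4.11% that were higher. Plin2 was at 0.43 ± 0.06, Plin5 at 0.36 ± 0.08 (edgeR adjusted p = 0.0184), Mgll at 0.52 ± 0.09 (edgeR adjusted p = 0.00552) and Plin3 at −0.37 ± 0.07 (SE, edgeR adjusted p = 0.00823). Lipe, at 0.50 ± 0.13, missed the threshold (edgeR adjusted p = 0.0599). It passed without CD untreated replicate 4 (0.66, edgeR adjusted p = 0.00464), HFHS untreated replicate 1 (0.57) or CD ertugliflozin replicate 2 (0.50). With all 16 libraries, Lipe also passed by DESeq2 (0.50, DESeq2 adjusted p = 0.00544) and by limma-voom (0.61, limma-voom adjusted p = 0.00422). Pnpla2 stood at 0.15 ± 0.07 (edgeR adjusted p = 0.325). The call of Plin5 ended without CD untreated replicate 1, 2 or 3 or HFHS untreated replicate 2 or 4, at 0.30 to 0.35, and with the adipocyte score as a covariate (0.30, edgeR adjusted p = 0.136). When only the groups compared were fitted, the calls of Plin5 (0.36, edgeR adjusted p = 0.0885), Plin3 (−0.37, edgeR adjusted p = 0.0538) and Mgll (0.52, edgeR adjusted p = 0.0513) ended. Without CD untreated replicates 2 and 3, those of Plin5 (0.29, edgeR adjusted p = 0.175) and Mgll (0.48, edgeR adjusted p = 0.0599) ended.

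The drug was compared next, to ask whether SGLT2 inhibition moved the same genes. None of the 10 genes passed on HFHS, on CD or averaged over both diets, by edgeR, by DESeq2 or by limma, against 0%, 0.0189% and 0% of all genes called by edgeR. At an unadjusted edgeR p under 0.05 there were 0 on HFHS, 2 on CD and 2 averaged over diets, against 4.02%, 6.17% and 5.57% of all genes. The 2 were Plin2 and Lipe both times. Plin2 stood at 0.21 ± 0.06 on CD (SE, edgeR adjusted p = 0.648), where all 4 CD ertugliflozin libraries (87.9 to 93.1 CPM) were above all 4 CD untreated libraries (75.3 to 80.6 CPM). The share of all genes whose groups did not overlap in that comparison was 3.07%, and 1.78% were higher. Lipe stood at 0.29 ± 0.13 on CD (edgeR adjusted p = 0.795).

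Averaged over diets the drug effect was 0.13 ± 0.04 for Plin2, 0.20 ± 0.09 for Lipe and 0.10 ± 0.05 for Pnpla2 (SE, edgeR adjusted p = 0.863 for each). On HFHS, Pnpla2 was at 442 to 464 CPM with the drug and at 362 to 432 CPM without it, and the groups did not overlap (0.15 ± 0.07, edgeR adjusted p = 1.00), as for 2.85% of all genes in either direction and 1.31% that were higher. Averaged over diets 0 of the 10 genes had groups apart, against 0.00631% of all genes. The averaged drug effects of the other 7 genes were between −0.02 (Plin3) and 0.10 (Hilpda). For Abhd5, Plin3, Plin5 and Mgll the 95% intervals of the averaged drug effect reached from −0.1249 (Plin3) to 0.1537 (Plin5) on the log2 scale. G0s2 had the widest, −0.29 to 0.49. The difference of the drug effect between diets passed for none of the 10 genes by edgeR (0 at an unadjusted p under 0.05, and 0 by DESeq2 and limma), against 0.0189% of all genes called and 4.27% at an unadjusted p under 0.05. For Plin2 it was −0.16 ± 0.08 (edgeR adjusted p = 1.00).

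**Figure D4:**
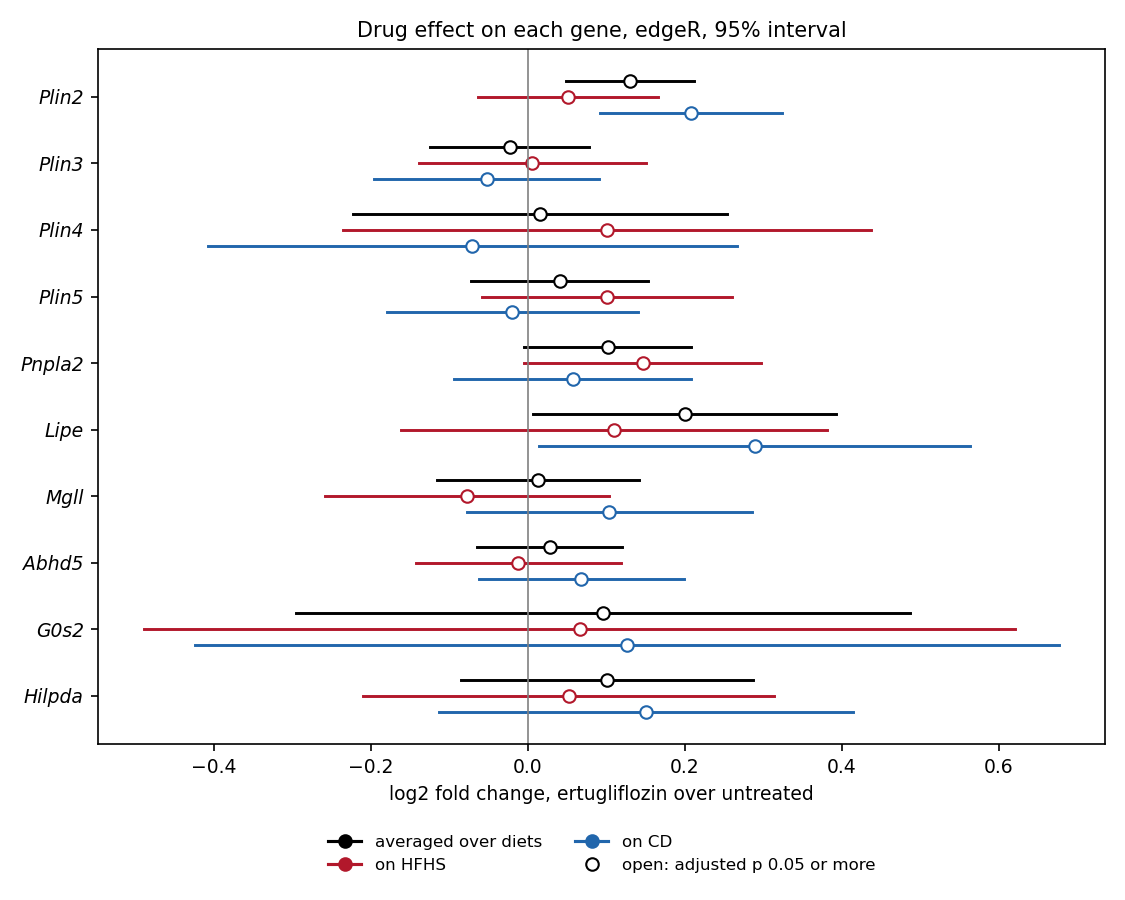
Drug effect as log2 fold change of ertugliflozin over untreated for each gene, averaged over diets (black), on HFHS (red) and on CD (blue). Lines are 95% intervals, and no point is filled because none had an edgeR adjusted p under 0.05. Plin2 and Lipe on CD are the only intervals of a single diet that leave out 0, at 0.21 and 0.29.

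Of 27 other listed genes of lipid droplets and lipolysis 25 were tested, 5 rose, 3 fell and 17 did not pass for diet averaged over drug arms (median log2 fold change 0.04), against 6.59% of all genes that rose and 5.01% that fell. Hsd17b11, a droplet-associated dehydrogenase, stood at 0.65 ± 0.08 (SE, edgeR adjusted p = 0.000183), and Cidea, which promotes droplet fusion and enlargement, at 0.47 ± 0.05 (edgeR adjusted p = 3.81e-06). Among those that fell was Tmem159, which helps form droplets together with seipin, at −0.35 ± 0.05 (edgeR adjusted p = 0.000230). Aup1, a protein of the endoplasmic reticulum and droplets, fell by 0.18 ± 0.04 (edgeR adjusted p = 0.00395). The genes that cap triglyceride synthesis were close to 0: Dgat1 at −0.04 ± 0.06 and Dgat2 at −0.01 ± 0.05 (edgeR adjusted p = 0.762 and 0.919).

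PPAR targets outside the 10 genes were mostly higher on HFHS: 21 of 23 tested rose and 0 fell averaged over drug arms (median 0.37), against 6.59% of all genes that rose. The 4 of smallest adjusted p were Acot2, a mitochondrial acyl-CoA thioesterase, at 0.84 ± 0.06, Decr1, an enzyme of unsaturated fatty acid oxidation, at 0.51 ± 0.05, the fatty acid transporter Cd36 at 0.39 ± 0.04 and the oxidation enzyme Ech1 at 0.43 ± 0.04 (SE, edgeR adjusted p = 8.60e-08 to 6.90e-06). Targets of hypoxia-inducible factors, a class to which Hilpda belongs, mostly did not pass: of 19 tested, 3 rose, 3 fell and 13 did not pass (median 0.05), against 6.59% of all genes that rose and 5.01% that fell. Egln3, a prolyl hydroxylase of those factors, stood at 0.86 ± 0.08, Pdk1, a kinase of pyruvate dehydrogenase, at 0.22 ± 0.04, the glucose transporter Slc2a1 at −0.46 ± 0.10 and Higd1a, a mitochondrial protein, at −0.16 ± 0.04 (SE, edgeR adjusted p = 2.20e-05 to 0.0124).

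Counts of cell type markers called for diet are given against 6.59% of all genes that rose and 5.01% that fell. Ventricular cardiomyocyte markers had 0 of 10 risen and 5 fallen averaged over drug arms (median log2 fold change −0.14), and summed to 91373 to 107410 CPM in HFHS hearts against 100620 to 113110 CPM in CD hearts. Endothelial markers had 2 of 10 risen (median 0.18) and fibroblast markers 2 of 10 (median 0.16). Macrophage markers had 1 of 10 fallen (median −0.21), smooth muscle and pericyte markers 1 of 8 risen (median 0.03), and erythroid markers 0 of 7 changed (median −0.10). Of the adipocyte markers 1 of 7 rose, which was Cidea, and the median was −0.29. Atrial markers (0 of 8, median −1.55) and valve and cartilage markers (0 of 8, median −1.33) did not pass. Atrial markers summed to 213 to 317 CPM in the other 3 groups and 240.3 to 1228 CPM in CD untreated. Valve markers summed to 25.8 to 93.6 CPM in the other 3 groups and 58.6 to 274 CPM in CD untreated. The part of these cell types in the diet effects was not tested. With the adipocyte score as a covariate, 5 of the 6 calls averaged over drug arms stayed. So did 3 of 4 without drug and 4 of 4 with ertugliflozin. That score includes Cidea, which itself rose with the diet (0.47 ± 0.05, SE), and the score was highest on average in CD untreated hearts. The covariate therefore cannot separate the part of fat cells from the diet response.

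Within groups, some libraries lay mostly to one side of their group mean. HFHS untreated replicates 2 and 3 were each above it in 9 of 10 genes, by up to 0.15 and 0.25 on the log2 scale. CD untreated replicate 4 was above its group mean in 8 of 10 genes, by up to 0.45 on the log2 scale in Plin4. HFHS untreated replicate 1 was below its mean in 7 of 10, with a lowest deviation of −0.38, also in Plin4. CD untreated replicate 2 and CD ertugliflozin replicate 3 were each above their group mean in only 2 of 10 genes. CD ertugliflozin replicate 1 and HFHS untreated replicate 4 were above theirs in 3 of 10, and CD ertugliflozin replicate 2 in 7 of 10. As a description over 16 libraries, Plin4 and Lipe deviated from their group means together (Pearson r = 0.88). So did Plin3 and Plin4 (0.75), and Plin4 and Pnpla2 (0.74). Plin2 and Mgll had the highest r over the 16 libraries as such (0.80), but their deviations within groups were unrelated (−0.002). Plin2 and Plin3 stood at −0.76 over the 16 libraries and at 0.25 within groups. These values share library and depth, and the values over all 16 include the group differences.

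**Figure D5:**
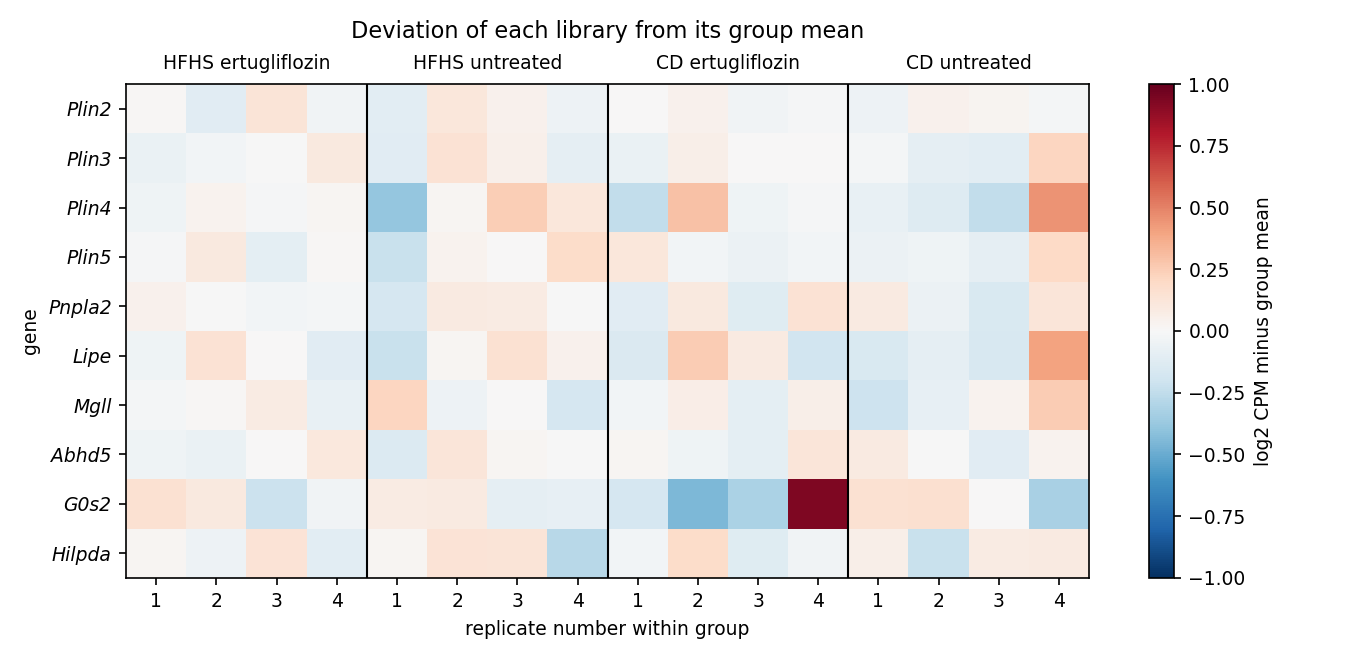
Deviation of each library (column, by group and replicate number) from its group mean in log2 CPM for each gene (row), red above and blue below. HFHS untreated replicates 2 and 3 are above their mean in 9 of 10 genes and CD untreated replicate 4 in 8 of 10, and the darkest cell is G0s2 in CD ertugliflozin replicate 4 at 0.93.

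For each gene the pair of genes with the most similar profile over the 16 libraries was taken among 10451 with a mean of at least 5 CPM. For Plin2 these were Gpam, the acyltransferase that starts triglyceride synthesis (Pearson r = 0.94), and Hsd17b11 (0.93). For Plin5 they were the kinase Oxsr1 (0.96) and the thioesterase Acot1 (0.96), for Lipe Tmed5 (0.94) and the uncoupling protein Ucp3 (0.94), and for Pnpla2 Rmnd5a (0.95) and the membrane skeleton gene Epb41 (0.91). Mgll was closest to Btnl9 (0.92) and to Cavin1, a coat protein of caveolae (0.91). Plin3 was closest to Cisd2, an iron-sulfur protein of the endoplasmic reticulum and mitochondria (0.97), and to Zfyve21 (0.94). Plin4 was closest to Fbxo31 (0.91) and Synj2 (0.88). Partners of the regulators were less similar: Ctsd, a lysosomal protease (0.87), and Afg3l2 (0.86) for Abhd5, Ppp1r3b, a glycogen-targeting subunit of a phosphatase (0.84), and Anks1 (0.83) for G0s2, and Plxna2 (0.84) and Abce1 (0.80) for Hilpda. These are the highest of many correlations and no test was made. They include the differences between groups, and the correlations of these pairs within groups were not examined.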

How the data were processed

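Per the labels' protocols, poly(A) RNA of 16 left ventricles went into directional libraries, 4 per group. The deposited table holds raw read counts for 53764 Ensembl genes. The submitters' processing notes list the mm10 build, FastQC 0.11.7, STAR 2.6.0c, featureCounts, Subread 1.6.2 and DESeq2 1.22.1 among the authors' tools. Which annotation was counted, on which strand, and what became of multi-mapped reads is not stated there. The authors also deposited regularized log2 values, used as an alternative input only. Symbols, coordinates and exon lengths came from GENCODE M21 (GRCm38), which matched 53669 IDs, and promoters from RefSeq GRCm38.p6.

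The tests were run on the counts by edgeR 4.0.16 under R 4.3.3, with filterByExpr, TMM factors, 1 robust quasi-likelihood fit of all 16 libraries with a mean per group, glmQLFTest and Benjamini-Hochberg adjustment over 15841 genes at a threshold of 0.05. SE was derived from F as |log2 fold change| over its root, and 95% intervals use the fit's degrees of freedom. Log2 CPM used a prior count of 2. Alternatives used DESeq2 1.42.0 and limma 3.58.1. Depth was 14637669 to 21452212 counts per library, and chi-square over degrees of freedom was 3.05 to 15.0 for pairs within groups, so no library was taken for a copy. The labels do not say more about the animals, so p-values rest on the spread between these libraries. They were chosen as representative, so the spread between animals may be larger, which was not tested.

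The members, lists and tests were chosen with earlier results of these data known. Named genes are the 10 members, the 2 most correlated genes of each (mean of at least 5 CPM, model names left out), up to 4 genes of smallest adjusted p in each pathway list, and defining markers of adipocytes and cardiomyocytes. Dgat1, Dgat2 and the adipocyte markers named for their counts were chosen after their values were seen. The lists comprised other lipid droplet genes, PPAR targets, targets of hypoxia-inducible factors, and markers of adipocytes, ventricular and atrial cardiomyocytes, valve, endothelium, fibroblasts, macrophages, smooth muscle and erythroid cells. The edgeR script was tested on simulated counts.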

Additional observations from a re-analysis of the deposited data

Results flagged for a closer look

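Each gene was examined for a library far from the others of its group, over 60 groups of 4 libraries that covered the 10 genes and the 5 ratios, and 4 groups held such a library. Chance gives about 1 in 20 groups. Plin5 in CD untreated replicate 4 was at 191 CPM, while the other 3 libraries of that group were at 156 to 162 CPM. Lipe in the same library was at 69.3 CPM, against 46.7 to 49.2 CPM in the others. G0s2 in CD ertugliflozin replicate 4 was at 83.5 CPM, against 31.9 to 38.8 CPM in the others. Hilpda in CD untreated replicate 2 was at 3.22 CPM, against 3.93 to 4.02 CPM in the others.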

How the results depend on the processing

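Over 46 fold changes and ratios, 1057 of 1141 values under alternatives kept direction and side of the threshold, 39 lost it, 10 passed it and 35 changed sign. Averaged over drug arms, 6 genes passed for diet in every setting except 2, each with 5. Diet without drug gave 4 genes, 1 when only the groups compared were fitted and 2 without CD untreated replicates 2 and 3, and 3 to 5 with 1 library left out. That comparison gave 5 genes by DESeq2 and by limma-voom, and 3 with the adipocyte score as a covariate. Diet with ertugliflozin gave 4 genes, and 2 to 5 with 1 library left out (2 without HFHS ertugliflozin replicate 1 or 2). It gave 5 genes by DESeq2, by limma-voom and when only the groups compared were fitted. With upper-quartile factors, no filter, the replicate block or without CD untreated replicates 2 and 3 it gave 3 genes. Drug comparisons gave 0 in all settings.

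Whether the replicate numbers pair the libraries was not settled. Deviations of same-numbered libraries correlated at −0.24 to 0.31 over 24 pairs. Among libraries of the other groups, 7 of 16 libraries correlated best with one of their own number. With the replicate block 6 genes passed for diet averaged over drug arms, 4 without drug and 3 with ertugliflozin.

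Values close to 0 changed sign, and the cause was not tested. For G0s2 the averaged diet effect was 0.0061 by limma-voom, 0.0112 on the deposited regularized log2 values, 0.0076 without CD untreated replicates 2 and 3, and −0.11 to 0.18 with 1 library left out. Without CD untreated replicates 2 and 3, the averaged drug effect was −0.0769 for Plin4, −0.0024 for Mgll and −0.0010 for Abhd5. It was −0.0122 for Mgll with the adipocyte score. With 1 library left out it was −0.041 to 0.0149 for Plin3, −0.0405 to 0.1025 for Plin4, −0.0218 to 0.0589 for Mgll and −0.12 to 0.17 for G0s2. Of the log2 ratios, Hilpda to Pnpla2 for drug was 0.0021 with a prior count of 0.5, 0.0157 without CD untreated replicates 2 and 3, and −0.0458 to 0.0388 with 1 library left out, and for diet −0.0669 to 0.0092. G0s2 to Pnpla2 for drug was 0.0306 without those 2 libraries and −0.1945 to 0.0281 with 1 left out. Abhd5 to Pnpla2 for diet was −0.1313 without them (exact permutation adjusted p = 0.209) and −0.18 to −0.13 with 1 left out.

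With 4 libraries per group, a drug effect of 0.21 for Plin2 on CD did not pass adjustment over all genes, and Hilpda is limited by its 59 to 98 counts per library.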
